A study of Mus musculus with 12 samples.

Results

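The circadian clock genes of mouse brain endothelial cells (BECs) are described here, as 10 genes chosen by symbol: Nr1d1, Nr1d2, Per1, Per2, Per3, Cry1, Cry2, Clock, Dbp and Tef. All 10 were listed among the 29965 genes of the NX/NG table and the 29775 genes of the OGD-R table. BECs were primary cultures from the brain microvessels of adult mice (C57BL/6 in the labels, C57BL/6J background in the methods), either Cort+/+ or lacking the neuropeptide cortistatin (Cort-/-), and 1 replicate was a pool of cells from 3 mice. Cultures were kept for 24 h in normoxia and normoglycemia (NX/NG, 21% oxygen) or were given 4 h at 1% oxygen without glucose or serum and then 20 h of reoxygenation in medium with glucose and 10% serum (OGD-R). RNA-seq values were at hand for 10 of the 12 samples, 5 per environment, of which 3 were Cort+/+ and 2 were Cort-/-. For Cort-/- BECs, replicate 3 of NX/NG and replicate 2 of OGD-R were not analysed here. The p-values below measure the spread between these culture pools. The hour of the day at which cells were collected was not given in the sources used here. Each value below is therefore a level at an unstated clock time, and whether libraries shared that time is not known. A change in phase cannot be told apart from a change in level.

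The clock of mammalian cells is a transcriptional loop. CLOCK pairs with BMAL1 (the product of Arntl) and binds E-box sequences to activate the Per, Cry, Nr1d, Dbp and Tef genes. PER and CRY proteins gather in a complex that represses CLOCK and BMAL1, and the nuclear receptors REV-ERB-alpha and REV-ERB-beta (products of Nr1d1 and Nr1d2) repress Arntl, Clock, Cry1 and Nfil3 through ROR elements. DBP and TEF, with HLF, activate genes that carry a D-box, which the repressor NFIL3 also binds. In endothelium the clock is known to drive daily rhythms of vessel function and of leukocyte adhesion, and serum is a classical signal that resets it in cultured cells.

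Levels are given as RPKM (reads scaled for the length of the gene and the depth of the library), here scaled jointly over the 10 libraries so that the environments could be set side by side. The marker sums and the main comparisons between genotypes within an environment used the RPKM as deposited, normalized separately for each environment. Each library held between 12386048 and 12390428 reads on genes. The 10 clock genes had between 49 reads (Per2 in a Cort+/+ NX/NG library) and 1202 reads (Clock in a Cort-/- NX/NG library), all far above a floor of 3 reads. The OGD-R comparisons left out Cort+/+ OGD-R replicate 1, which the heatmaps of the study omit, and were repeated with it. That library and Cort-/- OGD-R replicate 3 had 0.0775% and 0.0951% of their reads on genes at the ribosomal RNA entry Rn18s-rs5. The other 8 had 7.64% to 15.8%. Libraries are called low in ribosomal RNA by this single entry. Cort itself had at most 2 reads in any library and 0 in all Cort-/- libraries, too few to check the genotype labels. The endothelial markers Cldn5, Pecam1, Tjp1, Cdh5, Kdr and Tie1 summed to between 871 and 1328 RPKM, and the lowest of the 6, Kdr, measured 14.6 RPKM or more in every library. The contractile markers Acta2, Tagln, Cnn1 and Myh11 summed to between 995 and 1777 RPKM, almost all from Acta2 and Tagln, while Myh11 stayed at or below 2.11 RPKM. Astrocyte, oligodendrocyte and microglial lists each summed to at most 0.368 RPKM, and the neuronal list to between 0.451 and 0.956 RPKM. The epithelial markers Epcam, Krt8, Krt18 and Cdh1 summed to between 1.43 and 49.6 RPKM, highest in Cort+/+ NX/NG replicate 2 and next, at 37.0 RPKM, in Cort-/- OGD-R replicate 1. Because these are bulk cultures, fewer cells of a type and less RNA per cell cannot be told apart.

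Under NX/NG, per gene length, Tef had the highest level of the 10 genes at 7.15 ± 0.542 RPKM (SD, n = 5 libraries), followed by Clock at 6.67 ± 0.454, Nr1d2 at 6.41 ± 0.759 and Nr1d1 at 5.69 ± 0.391 RPKM. These neighbours in the order did not differ beyond their spread. Cry1, Cry2 and Per1 came next and did not differ beyond their spread, at 3.48 ± 0.385, 3.39 ± 0.140 and 3.30 ± 0.391 RPKM. Dbp followed at 1.97 ± 0.222 RPKM and Per3 at 1.60 ± 0.147 RPKM. Per2 was lowest, at 0.867 ± 0.137 RPKM. Under OGD-R the order at the top was another. Nr1d1 stood first at 8.85 ± 0.299 RPKM, then Nr1d2 at 7.98 ± 0.458, Tef at 7.68 ± 0.545 and Clock at 5.73 ± 1.05 RPKM. Per2 remained the lowest of the 10, at 1.09 ± 0.148 RPKM.

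**Figure D1:**
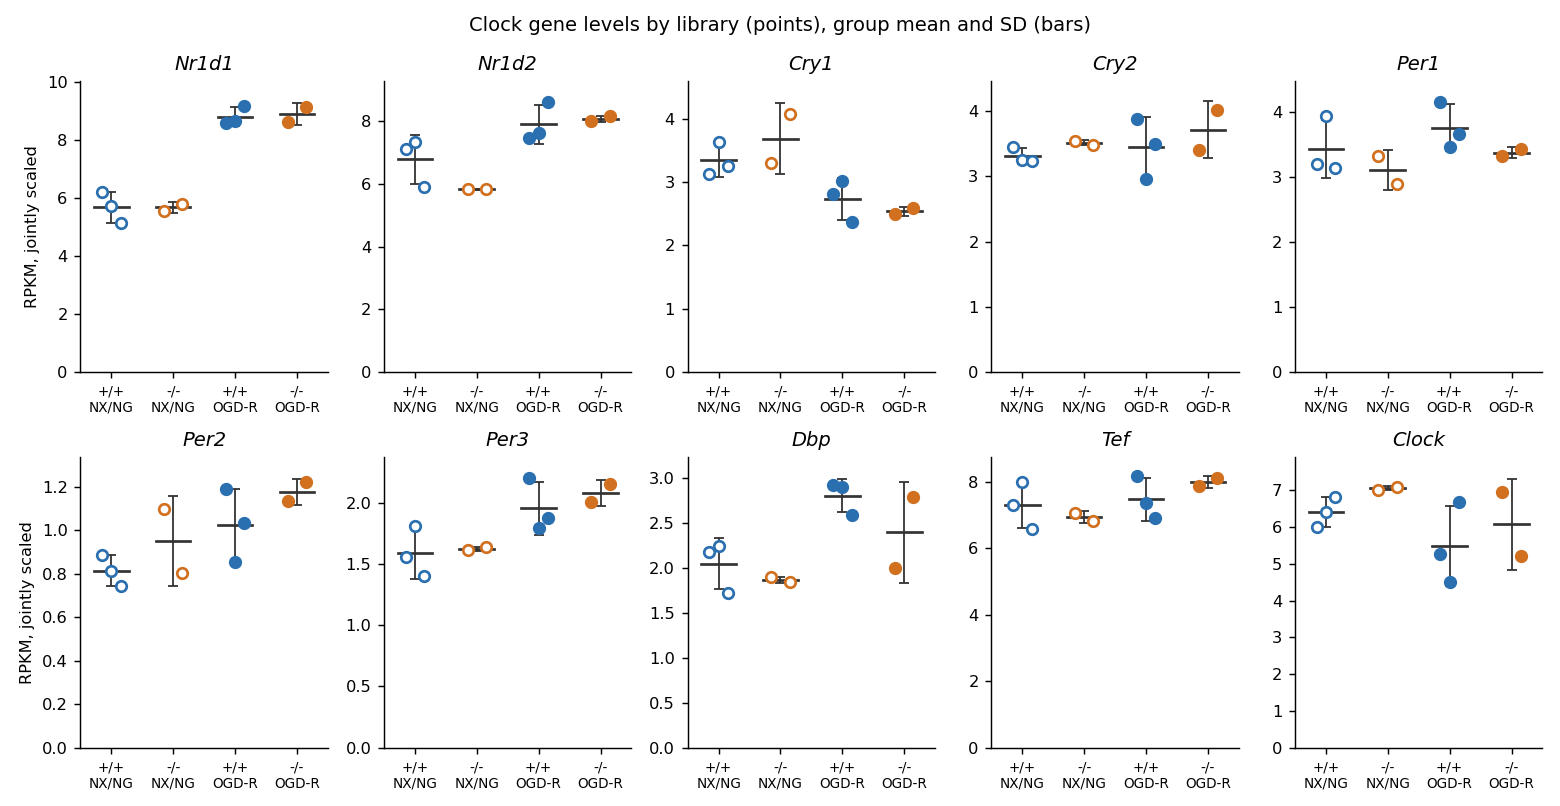
Jointly scaled RPKM (vertical axis, from 0) of the 10 clock genes in every library. Open points are NX/NG and filled points OGD-R libraries, blue is Cort+/+ and orange Cort-/-, and bars give the group mean and SD. The 5 filled points of Nr1d1 lie between 8.60 and 9.20 RPKM, above all open points, which end at 6.22 RPKM.

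The promoter sequences show which clock elements the genes carry near their starts. Windows from 250 bases before to 50 after a RefSeq start (GRCm38.p6) were at hand for 9 of the 10 genes, 13 windows in all. Per2 had no entry. The following stretches come from these windows, read 5′ to 3′ on the strand of the gene, with the motif in capitals. They are shown because Nr1d1 had the highest and Cry1 the lowest of the 10 estimates between environments in both genotypes, Per1 carries the textbook E-box, Per3 lies on the chromosome of Cort, and Arntl is a target of the Nr1d1 product.
Nr1d1, chr11:98775370-98775435, minus strand: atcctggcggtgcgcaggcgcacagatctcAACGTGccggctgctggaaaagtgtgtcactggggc
Cry1, chr10:85185079-85185163, minus strand: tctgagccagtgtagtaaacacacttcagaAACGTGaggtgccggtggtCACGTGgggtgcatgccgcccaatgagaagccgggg
Per1, chr11:69098753-69098818, plus strand: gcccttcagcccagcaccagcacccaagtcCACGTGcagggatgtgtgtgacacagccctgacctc
Per3, chr4:151044786-151044900, minus strand: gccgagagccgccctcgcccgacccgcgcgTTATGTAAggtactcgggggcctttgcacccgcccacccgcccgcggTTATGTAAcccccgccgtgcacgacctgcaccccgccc
Arntl, chr7:113207530-113207558, plus strand: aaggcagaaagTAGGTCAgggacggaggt
The capitals are an E-box (CACGTG) in Cry1 and Per1, an E-box variant (AACGTG, which reads CACGTT on the other strand) in Nr1d1 and Cry1, a D-box (TTANGTAA) at 2 places in Per3, and a ROR element (TAGGTCA) in Arntl.

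On both strands, the E-box CACGTG was found in windows of Cry1, Per1 and Tef, 3 of the 9 genes, for Tef in both its windows. It was found in 7.15% of all 32851 windows of the genome. Its palindrome reads alike on both strands. The variant CACGTT was found in Cry1, Cry2 and Nr1d1, against 4.68% of all windows. Cry1 alone among the 9 held both, the variant at -79 and the E-box at -60 from the start. The D-box was found in Per3 alone among the 9, at -205 and -158, against 2.32% of all windows. The ROR element TAGGTCA was in no window of the 9 genes and in those of Arntl and Nfil3, against 2.61% of all windows. The cAMP response element TGACGTCA was in no window of the 9 genes, against 1.79%. The windows of Nr1d2, Clock and Dbp held none of the 5 motifs. The clock genes are counted here as genes and the genome as windows, and these shares are not alike. Clock, Per1 and Tef had more than 1 window each, and so more room for a match. A match describes letters in a window and no bound site, and a window without a match says nothing of elements farther away.

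**Figure D2:**
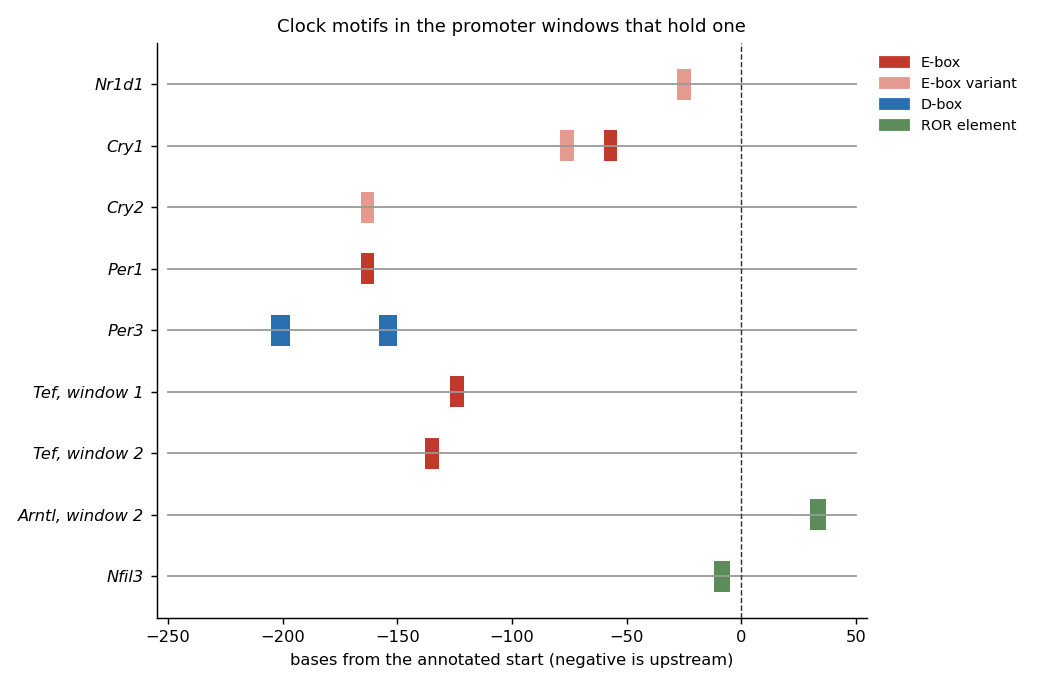
Places of the clock motifs in the promoter windows of listed clock genes that hold one; the horizontal axis is the distance in bases from the annotated start (dashed line), and each grey line is a window from 250 bases before to 50 after it. Bars mark the motifs by colour. The E-box variant of Nr1d1 lies at -28, and the 2 D-boxes of Per3 lie at -205 and -158.

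The first question was how the clock genes stood after OGD-R against NX/NG in each genotype. Nr1d1 was 1.56-fold higher after OGD-R in Cort+/+ BECs and 1.56-fold higher in Cort-/- BECs, Nr1d2 was 1.20- and 1.38-fold higher, and Cry1 was at 0.809 and 0.701 of its NX/NG level. None of these passed the threshold of a false discovery rate (FDR) of at most 0.05 within a genotype. In Cort+/+ BECs, limma called 0 of the 10 clock genes and 0 (0%) of 26885 genes, with 1 clock gene (Nr1d1) higher at an unadjusted p under 0.05, where 3.71% of all genes were higher and 3.06% lower. In Cort-/- BECs, limma called 0 of the 10 and 0 (0%) of 26523 genes. There, Nr1d1 and Nr1d2 were higher and Cry1 lower at an unadjusted p under 0.05, where 2.21% of all genes were higher and 1.87% lower. With 2 against 2 libraries this fit had 4.09 degrees of freedom and little power to call a gene, so its 0 calls do not show that no gene changed. Limited to 13998 genes by a filter at 1 RPKM, it also called 0, but its power for differences as small as these was not tested. With limma-voom, 6 genes in Cort+/+ and 0 genes in Cort-/- BECs were called, none of them among the 10. The median log2 difference of the 10 was 0.12 in Cort+/+ and 0.25 in Cort-/- BECs, against -0.01 and -0.0036 over all genes tested.

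Nr1d1 encodes REV-ERB-alpha and lies on chromosome 11 from 98767932 to 98775333 (GRCm38, minus strand). In Cort+/+ BECs it measured 6.22, 5.72 and 5.15 RPKM under NX/NG and 8.60, 8.67 and 9.20 RPKM under OGD-R. In Cort-/- BECs it measured 5.55 and 5.82 RPKM under NX/NG and 8.64 and 9.17 RPKM under OGD-R. All 5 OGD-R libraries were above all 5 NX/NG libraries, with no overlap in either genotype. The log2 difference was 0.64 in Cort+/+ (SE 0.10, limma FDR = 0.311) and 0.64 in Cort-/- BECs (SE 0.09, FDR = 0.613). In the ranking by p it was 106th of 26885 and 99th of 26523 genes. The 2 libraries low in ribosomal RNA, at 8.60 and 9.17 RPKM, lay close to the other 3. The annotated gene shares 1075 bases with Thra, a thyroid hormone receptor gene on the opposite strand. The kit marks strand, but the strand setting of the counting was not given in the sources used here. The same limit holds for Dbp, Cry2 and Tef, which also overlap genes on the opposite strand. Dbp shares 737 bases with Sphk2, Cry2 23417 with D930015M05Rik and Tef 193 with Gm17597. For Thra itself the log2 difference between OGD-R and NX/NG was 0.15 in Cort+/+ (SE 0.09, FDR = 0.779) and 0.21 in Cort-/- BECs (SE 0.20, FDR = 0.922).

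Nr1d2, which encodes the related receptor REV-ERB-beta (chromosome 14, 18204054 to 18239127, minus strand), measured 7.11, 7.36 and 5.90 RPKM in Cort+/+ NX/NG libraries and 7.46, 7.63 and 8.62 RPKM in Cort+/+ OGD-R libraries. In Cort-/- BECs both NX/NG libraries measured 5.83 RPKM, and the OGD-R libraries 8.02 and 8.16 RPKM. All 5 OGD-R libraries were again above all 5 NX/NG libraries, by a small margin in Cort+/+ and a wider one in Cort-/- BECs. The log2 difference was 0.26 in Cort+/+ (SE 0.12, FDR = 0.769) and 0.47 in Cort-/- BECs (SE 0.09, FDR = 0.735).

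Cry1, a repressor of CLOCK and BMAL1 (chromosome 10, 85131700 to 85185064, minus strand), was lower after OGD-R. In Cort+/+ BECs it measured 3.13, 3.64 and 3.25 RPKM under NX/NG and 2.80, 3.02 and 2.37 RPKM under OGD-R. In Cort-/- BECs it measured 3.29 and 4.08 RPKM and then 2.49 and 2.59 RPKM. All 5 OGD-R libraries were below all 5 NX/NG libraries. The log2 difference was -0.31 in Cort+/+ (SE 0.15, FDR = 0.777) and -0.51 in Cort-/- BECs (SE 0.16, FDR = 0.922). Its paralog Cry2 (chromosome 2, 92403646 to 92434043, minus strand) measured 3.24 to 3.54 RPKM under NX/NG and 2.96 to 4.02 RPKM under OGD-R, and the environments overlapped in both genotypes. Its log2 differences were -0.04 and 0.07 (95% intervals -0.34 to 0.26 and -0.31 to 0.46). The highest OGD-R values of Cry2, 3.88 and 4.02 RPKM, were those of the 2 libraries low in ribosomal RNA.

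Among the Per genes, whose products repress CLOCK and BMAL1 together with the CRY proteins, Per3 (chromosome 4, 151003652 to 151044665, minus strand) measured 1.56, 1.81 and 1.40 RPKM in Cort+/+ NX/NG and 2.20, 1.79 and 1.88 RPKM in Cort+/+ OGD-R libraries. In Cort-/- BECs it measured 1.61 and 1.64 RPKM and then 2.01 and 2.16 RPKM. The environments did not overlap in Cort-/- BECs and overlapped slightly in Cort+/+ BECs, where 1 OGD-R library lay just under the highest NX/NG library. How large a share of all genes separates by environment in Cort-/- BECs was not counted. Per1 (chromosome 11, 69095217 to 69109960, plus strand) ranged from 2.89 to 3.94 RPKM under NX/NG and from 3.32 to 4.16 RPKM under OGD-R. Per2 (chromosome 1, 91415982 to 91459324, minus strand) ranged from 0.744 to 1.09 RPKM and from 0.854 to 1.22 RPKM. Both overlapped between environments. Among the OGD-R libraries, the 2 low in ribosomal RNA had the highest values of Per3 (2.20 and 2.16 RPKM) and of Per2 (1.19 and 1.22 RPKM), but not of Per1. No NX/NG library was low in ribosomal RNA. The 6 log2 differences of the 3 Per genes were all above 0, from 0.06 for Per1 in Cort+/+ to 0.34 for Per3 in Cort-/- BECs, and none had an unadjusted p under 0.05.

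Dbp and Tef encode activators of D-box genes. Dbp (chromosome 7, 45705088 to 45710203, plus strand) measured 2.18, 2.24 and 1.72 RPKM in Cort+/+ NX/NG and 2.92, 2.90 and 2.59 RPKM in Cort+/+ OGD-R libraries, which did not overlap. In Cort-/- BECs it measured 1.89 and 1.84 RPKM under NX/NG and 2.00 and 2.79 RPKM under OGD-R, the higher value in the library low in ribosomal RNA. The log2 difference was 0.41 in Cort+/+ (SE 0.17, FDR = 0.735) and 0.33 in Cort-/- BECs (SE 0.22, FDR = 0.922). With all 3 Cort+/+ OGD-R libraries it was 0.44 in Cort+/+ BECs, with an unadjusted p under 0.05 (FDR = 0.881). The share of all genes whose Cort+/+ libraries separate by environment, as those of Dbp did, was not counted. Tef (chromosome 15, 81802421 to 81826863, plus strand) ranged from 6.58 to 7.99 RPKM under NX/NG and from 6.89 to 8.17 RPKM under OGD-R. Its highest OGD-R values, 8.17 and 8.11 RPKM, were those of the 2 libraries low in ribosomal RNA. Clock, the activator subunit (chromosome 5, 76209868 to 76304792, minus strand), ranged from 6.01 to 7.09 RPKM under NX/NG and from 4.51 to 6.96 RPKM under OGD-R, with log2 differences of -0.22 in Cort+/+ (95% interval -0.67 to 0.23) and -0.23 in Cort-/- BECs (95% interval -0.69 to 0.24). In both OGD-R groups the Clock levels of single libraries, in RPKM, lay further apart than those of any other of the 10 genes.

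**Figure D3:**
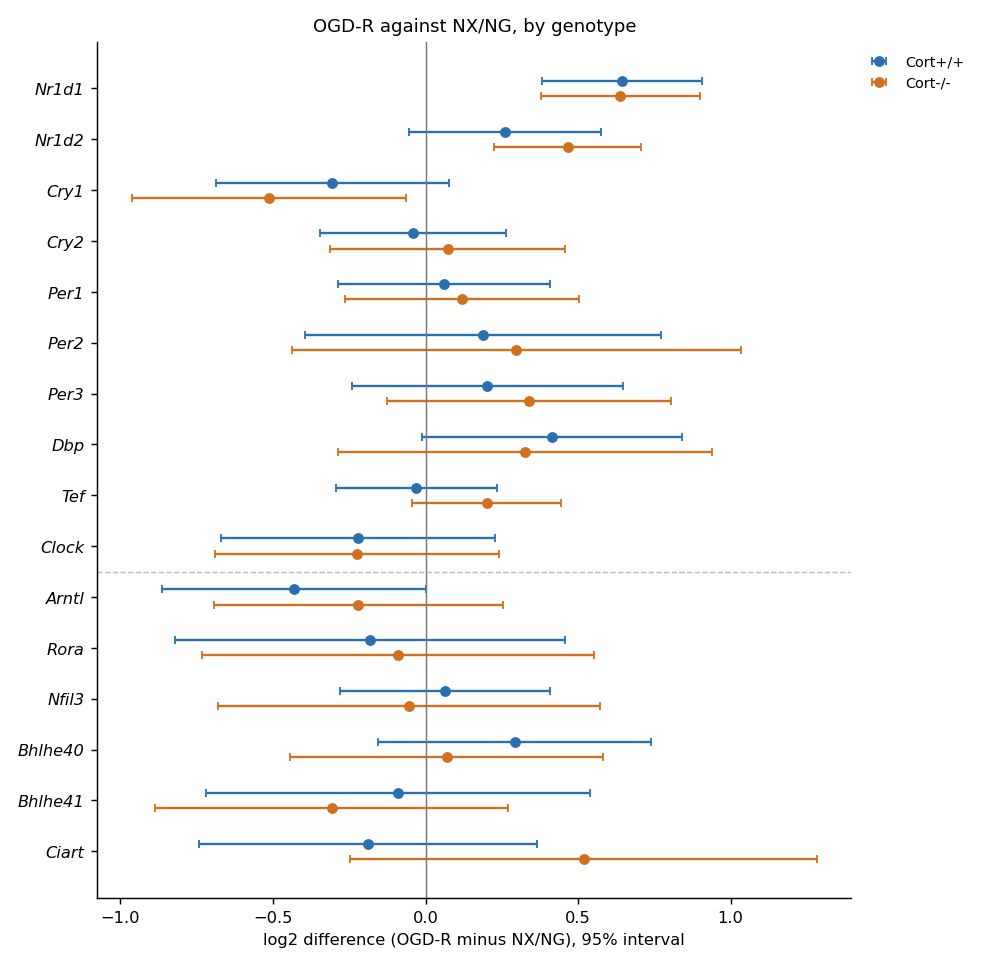
Log2 difference between OGD-R and NX/NG (horizontal axis; points, with 95% intervals from limma) for the 10 clock genes and, under the dashed line, other genes of the loop, in Cort+/+ (blue) and Cort-/- (orange) BECs without Cort+/+ OGD-R replicate 1. Nr1d1 has the highest estimate among the 10 in both genotypes, 0.64 in each, and Cry1 the lowest, -0.31 and -0.51.

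Since both genotypes gave like differences for Nr1d1, the environments were also compared over both genotypes in 1 fit, a comparison added after the values were seen. Without Cort+/+ OGD-R replicate 1, limma called 0 (0%) of 27321 genes. At an unadjusted p under 0.05, 4 clock genes were higher, where 3.46% of all genes were, and 1 was lower, where 3.59% of all genes were. Leaving out 1 further library took these 5 genes to between 3 and 5. Nr1d1 had a log2 difference of 0.64 (SE 0.07, FDR = 0.0892) and ranked 8th by p. With all 10 libraries, limma called 6 genes (0.022%), and Nr1d1 was 1 of them, with a log2 difference of 0.63 (SE 0.06, FDR = 0.0394). The other genes with an unadjusted p under 0.05 in this fit were Nr1d2 at 0.34, Dbp at 0.38 and Per3 at 0.31 among those higher, and Cry1 at -0.40, against 3.73% of all genes higher and 3.61% lower. Both libraries low in ribosomal RNA were OGD-R libraries. With a term for them, Nr1d1, Nr1d2 and Cry1 kept an unadjusted p under 0.05 in limma, and Dbp and Per3 did not. Leaving out any 1 of the 10 libraries took the FDR of Nr1d1 above 0.05, to between 0.0635 and 0.169, while its log2 difference stayed between 0.60 and 0.66. With limma-voom on the recovered reads Nr1d1 was called both without replicate 1 (FDR = 0.0211) and with it (FDR = 0.0155). Among the 13789 genes whose mean reached 1 RPKM, 1.07% lay higher in all 5 OGD-R than in all 5 NX/NG libraries, as did Nr1d1 and Nr1d2, and 0.994% lay lower in all 5, as did Cry1.

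The environments differed in serum as well as in oxygen and glucose, and these cannot be told apart for the clock genes. Of the lists of other cell types with sums above 1 RPKM, those of fibroblasts and pericytes did not overlap between the environments in Cort-/- BECs, while the contractile and epithelial ones did. The fibroblast markers Col1a1, Dcn, Lum and Pdgfra, of which Col1a1 gave almost all, summed to 47.8 to 68.9 RPKM under NX/NG and to 121 to 143 RPKM under OGD-R, and the 5 pericyte markers to 7.59 to 10.2 and 15.3 to 17.6 RPKM. In Cort+/+ BECs the same sums overlapped between environments, at 114 to 167 and 131 to 224 RPKM for fibroblast and at 17.9 to 21.4 and 17.4 to 22.9 RPKM for pericyte markers. The part of these cells in the clock gene values was not tested.

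The next question was whether lack of cortistatin went with other clock gene levels. Under NX/NG, limma called 0 of the 10 clock genes between Cort-/- and Cort+/+ BECs and 0 (0%) of 29965 genes. At an unadjusted p under 0.05 it found 0 of the 10, against 3.56% of all genes higher and 4.82% lower in Cort-/- BECs. Limma-voom called 124 genes and none of the 10. Under OGD-R, limma called 0 of the 10 and 0 (0%) of 28862 genes, with 0 of the 10 at an unadjusted p under 0.05, against 2.22% of all genes higher and 2.17% lower. This fit too had 2 against 2 libraries, with 4.25 degrees of freedom and the same low power, and called 0 of 14096 genes with the filter. The power of the filtered fit for differences of this size was again not tested. Limma-voom called 6 genes there and none of the 10. Of the 10 genes, 5 were nominally higher and 5 lower in each environment, with medians of 0.01 and 0.06 on the log2 scale against -0.01 and -0.0067 over all genes.

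The intervals show how large a difference these libraries left room for. Nr1d1 differed by -0.0052 under NX/NG (95% interval -0.26 to 0.25) and by -0.0046 under OGD-R (95% interval -0.28 to 0.27), a narrow range beside the 0.64 seen between environments. The largest estimate under NX/NG was that of Nr1d2, at -0.22 (95% interval -0.51 to 0.07), where both Cort-/- libraries at 5.83 RPKM lay just under the lowest Cort+/+ library at 5.90 RPKM. Clock was at 0.13 under NX/NG (95% interval -0.06 to 0.32), with both Cort-/- libraries, at 7.02 and 7.09 RPKM, above the 3 Cort+/+ libraries, which reached 6.82 RPKM. For neither gene was the share of all genes that separate likewise counted. Under OGD-R the largest estimate was that of Per2, at 0.30 (95% interval -0.41 to 1.01), the gene with the fewest reads. The lowest was that of Dbp, at -0.21 (95% interval -0.82 to 0.41).

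**Figure D4:**
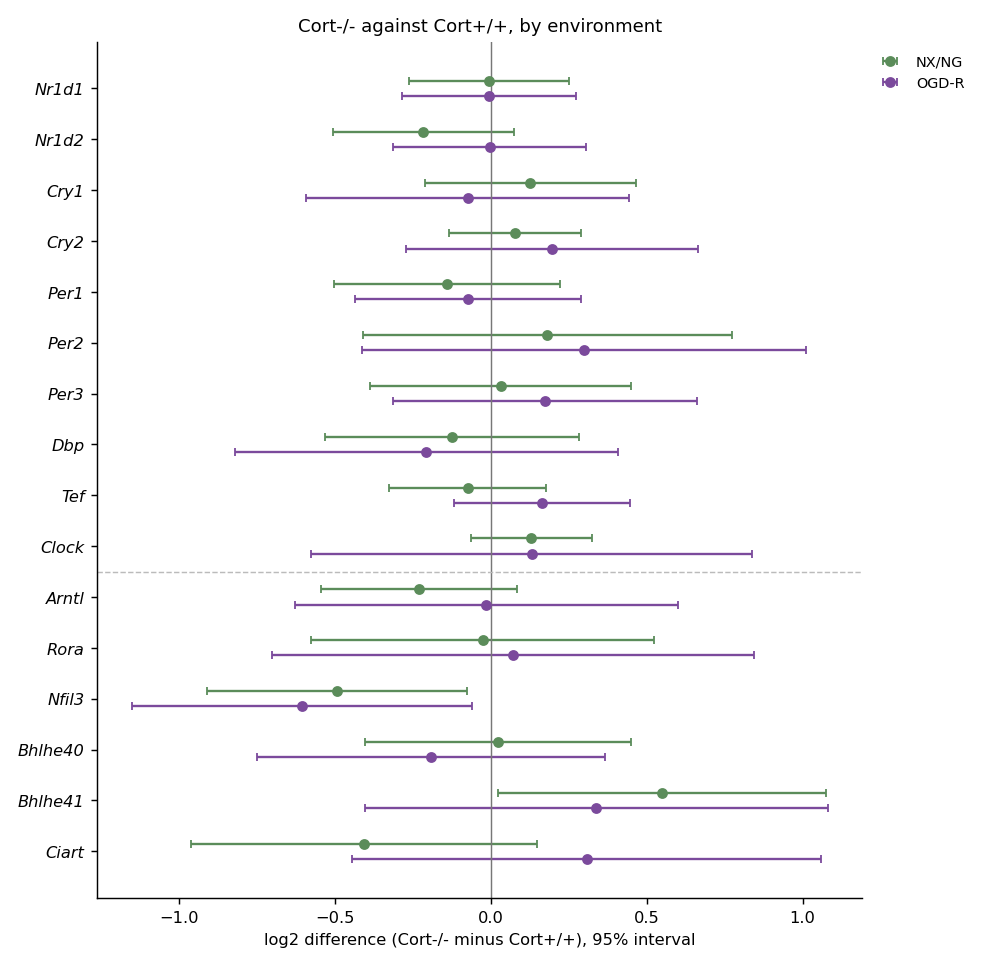
Log2 difference between Cort-/- and Cort+/+ BECs (horizontal axis; points, with 95% intervals from limma) under NX/NG (green) and under OGD-R without Cort+/+ OGD-R replicate 1 (purple), for the 10 clock genes and, under the dashed line, other genes of the loop. All intervals of the 10 clock genes include 0, and both of Nfil3 and the NX/NG interval of Bhlhe41 do not.

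Whether the difference between environments depended on the genotype was tested as an interaction in 1 fit of 4 groups. Limma called 0 of the 10 and 0 (0%) of 27321 genes, and 0 of the 10 had an unadjusted p under 0.05, against 2.1% of all genes higher and 1.82% lower. Limma-voom called 0 genes. The interaction was -0.0059 for Nr1d1 (95% interval -0.33 to 0.32), 0.21 for Nr1d2 (95% interval -0.17 to 0.58) and -0.21 for Cry1 (95% interval -0.73 to 0.31). For the other 7 genes it lay between -0.09 and 0.23.

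Per3 is the clock gene on the chromosome of Cort, and its position was looked at for that reason. It begins 1.88 Mb past the end of Cort (chromosome 4, 149125034 to 149126763), with 57 annotated genes in between, and lies inside the annotated span of Camta1 on the same strand. Between genotypes Per3 differed by 0.03 under NX/NG (95% interval -0.39 to 0.45) and by 0.17 under OGD-R (95% interval -0.31 to 0.66). Of its 3 nearest annotated neighbours on each side, Gm13090 was not listed, and Tnfrsf9, Gm23405, Uts2 and 4930589P08Rik had at most 8 reads in any library. Vamp3, a vesicle membrane gene 2.63 kb from Per3, differed between genotypes by 0.06 under NX/NG (SE 0.06, FDR = 0.922) and by -0.31 under OGD-R (SE 0.11, FDR = 0.907).

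A list of 23 other clock genes was measured in the same fits. At an FDR of at most 0.05, limma called 0 of the 23 in each of the 6 comparisons, limma-voom also 0. Arntl, which encodes BMAL1 and is repressed by the product of Nr1d1, measured 2.24, 2.48 and 2.54 RPKM in Cort+/+ NX/NG and 2.13, 1.54 and 2.03 RPKM in Cort+/+ OGD-R libraries. In Cort-/- BECs it measured 2.18 and 1.94 RPKM and then 1.73 and 1.77 RPKM. Within each genotype all OGD-R libraries were below all NX/NG libraries, but over both genotypes the environments overlapped. The share of all genes that separate within a genotype was not counted, so this only describes the libraries. Over both genotypes the log2 difference of Arntl was -0.33 (SE 0.12, FDR = 0.634). Arntl was the only 1 of the 23 with an unadjusted p under 0.05 in that fit. There 3.59% of all genes were lower and 3.46% higher, so the count is near the share over all genes. None of the 23 had an unadjusted p under 0.05 between environments within a genotype. The median log2 difference of the 23 was -0.05 in Cort+/+ and -0.09 in Cort-/- BECs.

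Between genotypes, the repressor gene Nfil3, whose product competes with DBP and TEF at D-boxes, had lower values in Cort-/- BECs in both environments. It measured 5.07, 5.88 and 4.92 RPKM in Cort+/+ and 4.36 and 3.20 RPKM in Cort-/- BECs under NX/NG, and 6.48, 6.15 and 4.95 RPKM against 3.16 and 4.09 RPKM under OGD-R. No Cort-/- library reached the lowest Cort+/+ library of its environment, but the share of all genes that separate likewise was not counted. The log2 difference was -0.49 under NX/NG (SE 0.16, FDR = 0.526) and -0.61 under OGD-R (SE 0.20, FDR = 0.907). Under NX/NG, Bhlhe41, which encodes the repressor DEC2, was at 0.55 (SE 0.20, FDR = 0.572), and Noct, which encodes the rhythmic phosphatase nocturnin, was at 0.35 (SE 0.10, FDR = 0.435). Under OGD-R the log2 difference was 0.34 for Bhlhe41, whose values did not overlap between genotypes, and 0.06 for Noct, whose values did. The share of all genes without overlap was not counted here either. Thra, the neighbour of Nr1d1, was at -0.43 under NX/NG (SE 0.08, FDR = 0.282), while Nr1d1 was at -0.0052 there. None of these passed the FDR threshold. Under NX/NG, 2 of the 23 were higher and 1 lower at an unadjusted p under 0.05, against 3.56% and 4.82% of all genes. Under OGD-R 0 were higher and 1 lower, against 2.22% and 2.17%. Under NX/NG the fibroblast sums, 47.8 to 68.9 RPKM in Cort-/- and 114 to 167 RPKM in Cort+/+ BECs, and the pericyte sums, 7.59 to 10.2 and 17.9 to 21.4 RPKM, did not overlap between genotypes. Under OGD-R both did. Their part in the differences between genotypes was not tested. Of the remaining loop genes, Bhlhe40, the paralog of Bhlhe41, ranged from 8.60 to 13.9 RPKM over the 10 libraries, Rora from 1.03 to 1.72 RPKM and Ciart, a repressor of CLOCK and BMAL1, from 0.663 to 1.41 RPKM. Npas2, the paralog of Clock, had 0 to 4 reads, and Hlf 1 to 5 reads, so no fold is given for them.

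The levels of the 10 genes were also set against each other across libraries. Over the 10 libraries, on the log2(RPKM + 0.1) scale, Nr1d1 and Nr1d2 had a Pearson correlation of 0.867, and Nr1d1 had 0.830 with Per3, 0.802 with Dbp, 0.505 with Tef, -0.822 with Cry1 and -0.726 with Arntl. Clock and Dbp stood opposed, at -0.846. These are descriptions over 10 libraries that fall into the 4 groups and share their scaling. Among 13788 other genes whose mean reached 1 RPKM, those most like Nr1d1 were Anp32b (0.925), Upf3a (0.922), ENSMUSG00002076711 (0.917), Rrbp1 (0.915) and Necap2 (0.914), and those most opposed were Crkl (-0.962), Txnip (-0.938) and Map3k7 (-0.934). Those most like Dbp were Agpat2 (0.972), Mrps26 (0.955), Tubb5 (0.947), Ssr2 (0.942) and Hes1 (0.929).

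**Figure D5:**
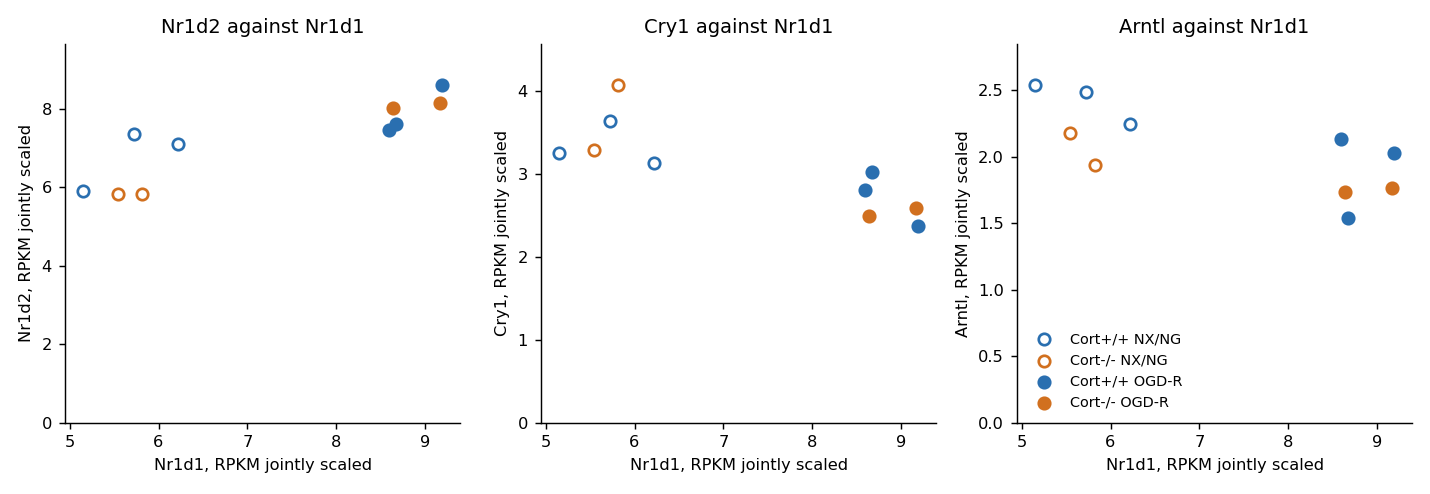
Nr1d2, Cry1 and Arntl (vertical axes, jointly scaled RPKM from 0) against Nr1d1 (horizontal axes, jointly scaled RPKM), with 1 point for each of the 10 libraries; open points are NX/NG and filled points OGD-R, blue Cort+/+ and orange Cort-/-. The OGD-R libraries lie to the right, from 8.60 RPKM of Nr1d1, higher for Nr1d2 and lower for Cry1 than all NX/NG libraries, while for Arntl the environments overlap.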

How the data were processed

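BEC RNA was sequenced by the authors from stranded mRNA libraries. The RPKM values were deposited by the authors as 1 table of NX/NG and 1 of OGD-R libraries, with separate normalization. The submitters' processing notes name edgeR, and the aligner, counter and genome build were not given in the sources used here. Labels and methods differ on the kit and read length. The authors' fold changes, p-values and FDR columns, other category columns (10, 1 per library) and the gene lists they called were not used.

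RPKM times gene length was within 0.05 of whole reads for 100% of values above 0 in 7 libraries and for at least 99.995755% in the other 3, so reads were recovered, and the 27321 genes in both tables were scaled jointly by the trimmed mean of M values, which moved the values of the listed genes by a factor of 0.974 to 1.03. Each comparison was fitted over all genes above 0 with limma 3.58.1 in R 4.3.3 on log2(RPKM + 0.1), with a trend on mean expression, two-sided, and Benjamini-Hochberg adjustment over all genes tested. A fold is 2 to the power of that difference and understates changes of low genes. Genes at or under 3 reads were given no fold. The fits were tested on simulated reads. Those of 2 against 2 libraries recovered none of the changed genes without a filter on low values, by limma or limma-voom, and most of them by limma with the filter. In the larger comparisons unfiltered limma recovered most, with more false calls than its threshold states. Replicates are culture pools of 3 mice.

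The 10 genes, the other lists and the motifs were chosen with earlier results of these data known. All 10 genes are given in every library. Of the other clock genes, those of the core loop and those with an unadjusted p under 0.05 are named; Per3's neighbours and the genes most like Nr1d1 and Dbp were taken by rule. Positions are from GENCODE vM21 (GRCm38) and promoter windows from RefSeq. The Arntl stretch lies in an exon.

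Whether replicate numbers pair the libraries could not be decided. Deviations from the group mean correlated between -0.531 and 0.185 for same-numbered libraries (12 pairs) and between -0.325 and 0.531 for others (25 pairs). The deviations of the 2 libraries of a Cort-/- group mirror each other, so these pairs are not independent. Alternatives were another pseudocount, a filter, quantile normalization, median-of-ratios scaling, limma-voom, all mapped libraries, 1 fit of 4 groups, a term for libraries low in ribosomal RNA, the replicate block, and each library left out.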

Additional observations from a re-analysis of the deposited data

How the results depend on the processing

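The higher level of Nr1d1 after OGD-R kept its direction under all alternatives: the log2 difference stayed between 0.57 and 0.71 in Cort+/+ (15 alternatives), between 0.57 and 0.68 in Cort-/- (10) and between 0.57 and 0.67 over both genotypes (27), with an unadjusted p under 0.05 in each. It was called only in the comparison over both genotypes and only in 3 of the 27, those with limma-voom, with all 10 libraries and with both together, which took the count of clock genes called from 0 to 1. In that comparison its FDR ranged from 0.0155 to 0.726. Nr1d2 and Cry1 had an unadjusted p under 0.05 in all 27, Dbp in 19 and Per3 in 13. No alternative called another of the 10 genes in any comparison. A filter at 1 RPKM in 2 libraries, which left Per2 out under NX/NG and in Cort+/+ BECs, also called 0.

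The count of clock genes with an unadjusted p under 0.05 was less steady. In Cort+/+ BECs it was 1, and 2 with the filter, with limma-voom, with all libraries and with 4 groups in 1 fit, and 3 with limma-voom on all libraries. Over both genotypes it was 5, and 7 with limma-voom on all libraries, and 3 with a term for low ribosomal RNA, with the replicate block and, among all 10 libraries, without Cort-/- OGD-R replicate 3. Leaving out single libraries gave 0 to 1 under NX/NG (1 without Cort+/+ NX/NG replicate 3), 0 under OGD-R, 1 to 2 in Cort+/+ (2 without OGD-R replicate 2 or 3), 2 to 4 in Cort-/-, 0 to 2 for the interaction (2 without Cort+/+ NX/NG replicate 3) and 3 to 6 over both genotypes (3 without Cort-/- NX/NG replicate 1 or 2, Cort+/+ NX/NG replicate 3, Cort-/- OGD-R replicate 3 or Cort+/+ OGD-R replicate 2). The number of all genes called was 0 in each comparison and ran from 0 to 683 under NX/NG (683 without Cort-/- replicate 2, 543 without replicate 1, 124 with limma-voom), 0 to 6 under OGD-R, 0 to 9 in Cort+/+, 0 to 1 in Cort-/-, 0 to 12 for the interaction and 0 to 20 over both genotypes. The cause was not tested.

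Signs turned only where the difference had an unadjusted p above 0.05. Between genotypes under NX/NG, Nr1d1 came to 0.0096 with quantile normalization and 0.0010 with 4 groups in 1 fit. Under OGD-R, Nr1d1 and Nr1d2 came to 0.012 and 0.020 with quantile normalization, 0.013 and 0.036 with all libraries, 0.015 and 0.037 with limma-voom on all libraries, and 0.012 and 0.045 with the ribosomal RNA term. Between environments in Cort+/+ BECs, Cry2 and Tef came to 0.047 and 0.036 with all libraries and 0.056 and 0.036 with limma-voom on them, and Cry2 over both genotypes to -0.045 with the ribosomal RNA term. The Nr1d1 interaction came to 0.0023 with quantile normalization, 0.012 with all libraries, 0.016 with limma-voom on them, 0.011 with the ribosomal RNA term and 0.0031 with median-of-ratios scaling. Leaving out single libraries gave, under NX/NG, -0.021 to 0.38 for Per2, -0.051 to 0.12 for Per3, -0.022 to 0.28 for Cry1 and -0.076 to 0.059 for Nr1d1. Under OGD-R it gave -0.15 to 0.41 for Clock, -0.24 to 0.096 for Cry1, -0.047 to 0.038 for Nr1d1, -0.091 to 0.084 for Nr1d2 and -0.44 to 0.026 for Dbp. Between environments it gave -0.50 to 0.058 for Clock, -0.16 to 0.076 for Cry2 and -0.10 to 0.037 for Tef in Cort+/+, -0.045 to 0.19 for Cry2 in Cort-/-, -0.043 to 0.074 for Cry2 over both genotypes (up to 0.12 where Cort+/+ OGD-R replicate 1 stayed in), and -0.070 to 0.064 for the Nr1d1 interaction.

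Whether the replicate numbers pair the libraries could not be decided. With the replicate block the count of clock genes with an unadjusted p under 0.05 was 1 under NX/NG and 3 over both genotypes, Per3 came to -0.051 under NX/NG, Nr1d1 and Nr1d2 to 0.0010 and 0.012 under OGD-R with all libraries, and Cry2 to -0.025 over both genotypes. No paired analysis was possible for the environments in Cort-/- BECs, nor under OGD-R without Cort+/+ replicate 1, because the groups share only 1 replicate number there.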
